A study of Mus musculus with 6 samples.

Results

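The 30 genes described here encode receptors and transporters for glutamate, the excitatory transmitter that sensory neurons release onto their targets. They were chosen by name and make up 30 of the 21883 genes that RefSeq lists as protein-coding on chromosomes 1 to 19, X and Y of GRCm38. They comprise 4 genes of AMPA receptor subunits (Gria1 to Gria4), 5 of kainate receptor subunits (Grik1 to Grik5), 7 of NMDA receptor subunits (Grin1, Grin2a to Grin2d, Grin3a and Grin3b), the delta receptor gene Grid1, 7 of metabotropic receptors (Grm2 to Grm8), 3 of vesicular transporters (Slc17a6, Slc17a7 and Slc17a8) and 3 of transporters of the plasma membrane (Slc1a1, Slc1a2 and Slc1a3). Some genes of these families are not in the set and were not analysed here.

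AMPA, kainate and NMDA receptors are ion channels opened by glutamate: AMPA receptors carry fast excitation, kainate receptors also act on axons and terminals and are known in sensory neurons, and NMDA receptors need the subunit encoded by Grin1. Metabotropic receptors signal through G proteins and adjust release or excitability. Vesicular transporters load glutamate into synaptic vesicles and thereby make a neuron glutamatergic, whereas the plasma membrane transporters take glutamate back up, Slc1a2 and Slc1a3 mostly into glia.

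The cells came from dorsal root ganglia of mouse embryos at E11.5, were fixed, and were sorted by GFP that a Runx3 bacterial artificial chromosome drives in Runx3-BAC-GFP-CB6 transgenic mice. The labels call them TrkC proprioceptive neurons, the neurons that sense muscle stretch. All 3 groups of samples (ATAC-seq for open chromatin, ChIP-seq with the H3K27ac antibody ab4729, and input DNA, 2 samples each) share this genotype, stage and sort, so there is no control genotype or other cell type. How many embryos were pooled for a sample is not stated. The values are 2 lists of consensus peaks, 1 per assay, without signal or score. Thus neither a spread between replicates nor the depth per sample can be given, counts of genes are descriptions without a test, and a gene without a peak is not shown to be closed or free of the mark. Input DNA was not used here.

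Of 8 marker genes of TrkC sensory neurons, 5 were open (an ATAC peak within 1 kb of either annotated gene end; all genes: 60.4%) and 4 were acetylated (an H3K27ac peak there; all genes: 49.3%), shares near those of all genes that do not by themselves mark the cell type. Isl1, Pou4f1 and Etv1 carried both. Runx3 had ATAC alone at its annotated ends but both marks within 1 kb of a RefSeq start, with 12 ATAC and 3 H3K27ac peaks inside. Ntrk3, which encodes TrkC, had 7 ATAC and 4 H3K27ac peaks inside the gene. Avil, a sensory neuron gene, held no peak at its ends or inside. Of 8 markers of satellite glia and Schwann cell precursors, 5 had ATAC (all genes: 60.4%) and 6 had H3K27ac at an end (49.3%), and 2 of these 6, Sox10 and Foxd3, had H3K27ac without ATAC. Of the remaining markers, H3K27ac lay at an end of 1 of 5 motor neuron genes (Slc5a7), 0 of 5 endothelial and mural genes, 1 of 4 blood genes (Cd4) and 1 of 5 muscle and mesenchyme genes (Twist1). ATAC lay at an end of more of them (all genes: 60.4%). These were the motor neuron genes Mnx1, Slc5a7, Lhx3 and Olig2, the endothelial gene Kdr and the blood genes Spi1 and Cd4. Among muscle and mesenchyme genes they were Myod1, Myog, Col1a1 and Twist1.

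A promoter table from RefSeq (GRCm38.p6) gave the transcription starts of 21 members. The missing members were Gria1, Gria3, Grik1, Grin2a, Grin2b, Grin3a, Grid1, Grm4 and Grm5. Both marks lay within 1 kb of a start in 7 of these 21 genes (all genes with a listed start: 50.6%). The 250 bases before each of these starts are printed first because they are the promoters that the 2 lists mark together. They read 5′ to 3′ in the direction of the gene, with the bases covered by an ATAC peak in capitals:
Slc17a6, chr7:51621580-51621829, plus strand: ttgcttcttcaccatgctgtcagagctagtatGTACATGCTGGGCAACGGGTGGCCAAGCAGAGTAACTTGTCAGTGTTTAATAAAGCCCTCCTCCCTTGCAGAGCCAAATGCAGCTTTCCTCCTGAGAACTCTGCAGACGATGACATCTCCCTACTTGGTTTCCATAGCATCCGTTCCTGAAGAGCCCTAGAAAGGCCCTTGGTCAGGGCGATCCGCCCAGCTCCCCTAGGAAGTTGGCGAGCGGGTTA
Gria2, chr3:80802836-80803085, minus strand: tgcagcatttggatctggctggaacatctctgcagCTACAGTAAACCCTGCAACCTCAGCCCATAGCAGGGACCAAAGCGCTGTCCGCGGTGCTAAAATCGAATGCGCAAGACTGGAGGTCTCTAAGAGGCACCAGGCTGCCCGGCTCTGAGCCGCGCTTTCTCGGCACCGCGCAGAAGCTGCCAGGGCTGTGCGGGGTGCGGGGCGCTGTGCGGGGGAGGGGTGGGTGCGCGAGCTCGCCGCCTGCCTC
Gria4, chr9:4796235-4796484, minus strand: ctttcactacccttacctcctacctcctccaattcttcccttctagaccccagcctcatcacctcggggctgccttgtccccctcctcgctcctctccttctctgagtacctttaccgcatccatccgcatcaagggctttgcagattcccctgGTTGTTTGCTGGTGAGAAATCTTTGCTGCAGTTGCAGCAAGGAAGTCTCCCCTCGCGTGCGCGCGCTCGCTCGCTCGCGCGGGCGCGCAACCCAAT
Grik2, chr10:49788755-49789004, minus strand: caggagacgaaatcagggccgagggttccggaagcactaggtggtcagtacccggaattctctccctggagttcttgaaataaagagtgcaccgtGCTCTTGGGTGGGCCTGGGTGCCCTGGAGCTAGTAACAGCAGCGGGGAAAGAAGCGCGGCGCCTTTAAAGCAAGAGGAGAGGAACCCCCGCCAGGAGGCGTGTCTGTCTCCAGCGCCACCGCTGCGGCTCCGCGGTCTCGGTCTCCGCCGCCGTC
Grik4, chr9:42944372-42944621, minus strand: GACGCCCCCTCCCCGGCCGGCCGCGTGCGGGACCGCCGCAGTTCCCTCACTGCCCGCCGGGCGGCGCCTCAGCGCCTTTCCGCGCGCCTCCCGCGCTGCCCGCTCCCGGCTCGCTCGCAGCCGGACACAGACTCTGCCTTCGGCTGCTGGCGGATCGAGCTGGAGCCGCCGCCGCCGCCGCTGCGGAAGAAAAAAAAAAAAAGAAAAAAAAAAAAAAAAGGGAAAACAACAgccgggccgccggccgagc
Grm2, chr9:106656110-106656359, minus strand: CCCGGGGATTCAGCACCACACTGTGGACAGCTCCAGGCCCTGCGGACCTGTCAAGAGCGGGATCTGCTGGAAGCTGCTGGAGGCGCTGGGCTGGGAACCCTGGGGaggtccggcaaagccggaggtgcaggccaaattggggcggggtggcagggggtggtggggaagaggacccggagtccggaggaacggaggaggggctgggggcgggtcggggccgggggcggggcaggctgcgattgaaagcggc
Slc1a3, chr15:8710808-8711057, minus strand: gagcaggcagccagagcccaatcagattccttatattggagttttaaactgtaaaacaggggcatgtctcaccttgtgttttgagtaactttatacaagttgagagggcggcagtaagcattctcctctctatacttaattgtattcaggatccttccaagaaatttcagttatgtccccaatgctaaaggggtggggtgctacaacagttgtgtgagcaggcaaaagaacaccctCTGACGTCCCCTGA

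In Slc17a6, Gria2, Gria4, Grik2, Grik4 and Grm2, all 250 bases lay under H3K27ac, and ATAC covered 218, 215, 96, 155, 231 and 105 of them. Slc1a3 was the exception, with 14 bases under ATAC and 0 under H3K27ac: its 105 bp H3K27ac peak began 370 bp inside the gene.

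ATAC without H3K27ac lay within 1 kb of a start in 9 of the 21 genes (all genes: 11.7%): Grin1, Grin2d, Grm3, Grm6, Grm7, Grm8, Slc17a7, Slc17a8 and Slc1a1. The 3 with the widest ATAC peaks there are printed as a contrast, capitals as above:
Grin1, chr2:25319188-25319437, minus strand: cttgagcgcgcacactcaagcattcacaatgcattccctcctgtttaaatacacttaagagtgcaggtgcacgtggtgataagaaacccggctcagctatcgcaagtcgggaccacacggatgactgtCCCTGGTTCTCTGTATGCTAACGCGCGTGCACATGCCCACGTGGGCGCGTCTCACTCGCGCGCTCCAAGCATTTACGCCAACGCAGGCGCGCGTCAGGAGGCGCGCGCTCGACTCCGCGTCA
Grm3, chr5:9725353-9725602, minus strand: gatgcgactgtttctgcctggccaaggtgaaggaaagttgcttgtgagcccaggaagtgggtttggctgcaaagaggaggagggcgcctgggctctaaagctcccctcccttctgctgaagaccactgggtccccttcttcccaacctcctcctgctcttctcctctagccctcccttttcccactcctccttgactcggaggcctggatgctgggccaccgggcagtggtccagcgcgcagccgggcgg
Slc1a1, chr19:28834885-28835134, plus strand: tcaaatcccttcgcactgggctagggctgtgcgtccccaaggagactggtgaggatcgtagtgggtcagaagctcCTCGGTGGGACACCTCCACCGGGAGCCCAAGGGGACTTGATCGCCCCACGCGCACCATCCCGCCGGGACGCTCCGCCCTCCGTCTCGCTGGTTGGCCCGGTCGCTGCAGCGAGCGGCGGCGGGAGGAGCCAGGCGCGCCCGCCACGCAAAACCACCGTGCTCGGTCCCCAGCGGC

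ATAC covered 122 bases of the Grin1 stretch and 175 of that of Slc1a1. It covered none of the Grm3 stretch, since the 522 bp ATAC peak of Grm3 began 410 bp before the start. H3K27ac covered 0 bases of each.

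H3K27ac without ATAC lay at the start of 1 gene, Grik5 (all genes: 0.966%), and neither mark at the starts of 4, Grik3, Grin2c, Grin3b and Slc1a2 (all genes: 36.7%). In all, 16 of 21 genes were open at a start (all genes: 62.3%) and 8 of 21 were acetylated there (all genes: 51.6%). Among the 16 open ones, 7 carried the mark, beside 81.3% of all genes open at a start. On the start base itself, ATAC lay in 10 members and H3K27ac in 7 (all genes: 54.5% and 44%).

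**Figure D1:**
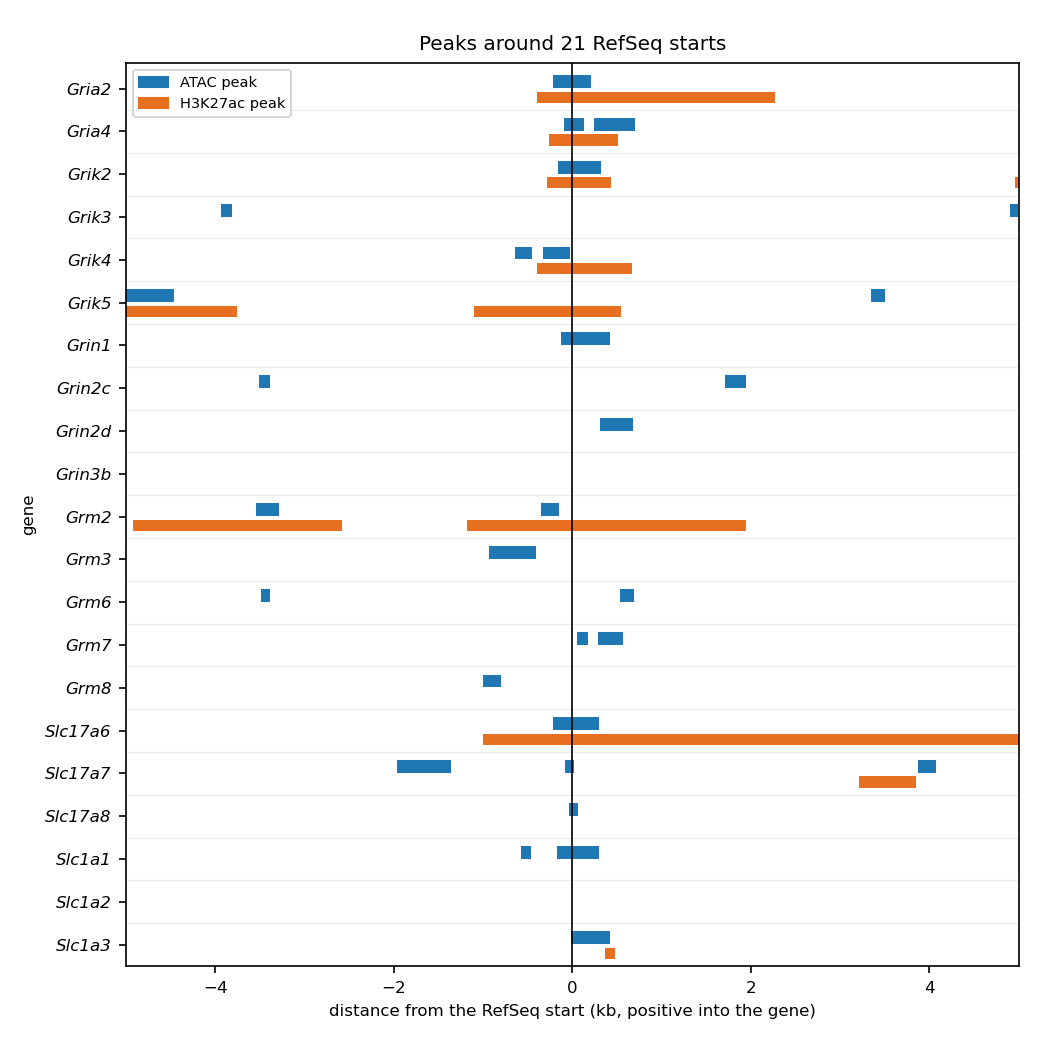
ATAC peaks (blue) and H3K27ac peaks (orange) within 5 kb of the RefSeq start of 21 genes, 1 row per gene, drawn to scale, with distance in kb from the start and positive values into the gene. Where a gene has several starts, the one nearest the annotated gene end is shown. H3K27ac lies over or beside the start in 8 rows, and Slc17a6 has the widest peak, which runs past the edge of the plot.

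Annotated gene ends are known for all 30 genes. ATAC lay at an end of 22 members (all genes: 60.4%) and H3K27ac at an end of 11 (all genes: 49.3%). Both marks were present in 9 members (all genes: 47.8%), ATAC alone in 13 (all genes: 12.6%), H3K27ac alone in 2 (all genes: 1.50%) and neither in 6 (all genes: 38.1%). Among the 22 open members, 9 carried H3K27ac, beside 79.1% of all open genes. Within 1 kb of starts as of ends, the share open was above that of all genes and the share acetylated below it. The higher share open was not seen on the start base itself (10 of 21 members, all genes: 54.5%). It was also not seen at ends with the wider 50% of each list (15 of 30 members, all genes: 54.2%). At that setting, 6 members had H3K27ac at an end (all genes: 32.4%) and 3 had both marks (30.4%), and fewer of all genes were called there too. ATAC alone was found in 12 members, while its share of all genes rose from 12.6% to 23.9%. Of these 12, Gria4, Grik1, Grin2d and Slc1a3 had both marks with the full lists. With peaks counted over the whole gene, 16 of 30 members had H3K27ac (all genes: 55.5%) and these 16 had both marks (54.8%). The lower share with H3K27ac was thus seen at starts and ends, and over the whole gene the share was near that of all genes. A longer gene leaves more room for peaks in the whole-gene count, which was not split by length.

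These genes are long, with a median of 158 kb against 17.2 kb for all genes, and long genes are more often open. Among genes of 200 kb or longer, 10 of 14 members were open at an end (all such genes: 76.3%), 3 of 14 acetylated (58.2%), the same 3 had both marks (56.1%), and 7 of 14 were open without H3K27ac (20.2%). Among genes under 50 kb, 7 of 9 members were open (56.2%), 3 of 9 acetylated (45.9%), these 3 with both marks (44.5%), and 4 of 9 open without H3K27ac (11.7%). Among genes of 50 to 200 kb, H3K27ac was not less frequent in members: 5 of 7 were open (74.6%), 5 of 7 acetylated (61.4%), 3 of 7 had both marks (59.8%) and 2 of 7 open without H3K27ac (14.8%).

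The ATAC peaks at member ends were narrow. Their median width was 230 bp (29 peaks), against 364.5 bp for the 15108 ATAC peaks at the ends of all genes. The 10 that overlapped H3K27ac had a median of 296 bp (all genes: 417 bp) and the 19 that did not had 189 bp (all genes: 244 bp). The 11 H3K27ac peaks at member ends had a median of 1066 bp, from 105 bp at Slc1a3 to 8802 bp at Slc17a6 (all genes: 1247.5 bp).

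**Figure D2:**
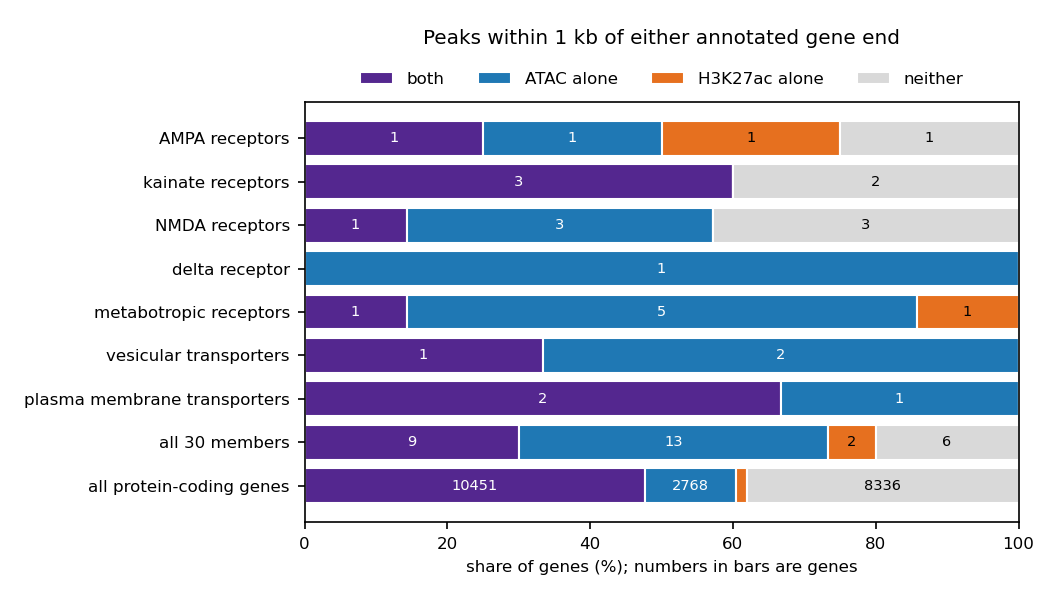
Share of genes in percent with both marks, ATAC alone, H3K27ac alone or neither within 1 kb of either annotated end, 1 bar per receptor or transporter group, then the 30 members and all 21883 protein-coding genes, with gene numbers in the bars. ATAC alone holds 13 of 30 members and 2768 of all genes.

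Slc17a6, the vesicular transporter also called VGLUT2, had the most extended marking of the set. Its gene spans chr7:51621830-51671126. An ATAC peak of 519 bp (chr7:51621612-51622130) lay over the start, inside an H3K27ac peak of 8802 bp (chr7:51620825-51629626) that began before the start and reached into the gene. That H3K27ac peak ranked 33rd in width of 19924. A second H3K27ac peak of 2754 bp (chr7:51631087-51633840) followed inside the gene, and the 3 ATAC peaks inside the gene, of 391, 258 and 166 bp, all lay under these 2 peaks.

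Beyond the upper end of Slc17a6, no protein-coding gene followed for 189 kb, and 6 further H3K27ac peaks and 3 ATAC peaks there were assigned to it. Assignment here means that Slc17a6 has the nearest gene end within 100 kb; it does not show that a region acts on the gene. The first ATAC peak, chr7:51693894-51694017, lay 22768 bp beyond that end and under H3K27ac. The second, chr7:51749889-51750082, lay 78763 bp beyond it under a 2560 bp H3K27ac peak, and the third, chr7:51754317-51754575, did not overlap the mark. In all, 5 of the 6 distal ATAC peaks of Slc17a6 (those over 1 kb from every gene end) were acetylated, and 97 genes of 21883 had 5 or more; with the wider 50% of each list, 2 were. Its 8 H3K27ac peaks covered 20349 bp.

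The other vesicular transporters were open at the start without H3K27ac there. Slc17a7, or VGLUT1, which mature proprioceptors use, had ATAC of 106 bp on the start (chr7:45163838-45163943), a 606 bp ATAC peak that ended 1361 bp before it, and 1 H3K27ac peak of 635 bp inside the gene (chr7:45167136-45167770) that overlapped no ATAC peak. Slc17a8, or VGLUT3, had a single ATAC peak of 103 bp over its outer start and no H3K27ac peak at its ends, inside or assigned. Thus all 3 genes had an ATAC peak at the start, and Slc17a6 alone among them had H3K27ac there. The peaks at the starts of Slc17a7 and Slc17a8 are narrow, and with the wider 50% of each list 1 of the 3 genes, Slc17a6, had ATAC at an end.

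Of the plasma membrane transporters, Slc1a2 (GLT-1) had both marks at its lower annotated end, an ATAC peak of 688 bp (chr2:102658669-102659356) under an H3K27ac peak of 1252 bp (chr2:102658272-102659523). The promoter table places its start 48199 bp further in, where neither mark lay within 1 kb. Inside the gene were 3 ATAC and 5 H3K27ac peaks, of 2498, 230, 717, 992 and 1358 bp, of which 1 overlapped ATAC. Slc1a3 (GLAST) had an ATAC peak of 436 bp on its start and shared 52 bp of it with a 105 bp H3K27ac peak. Its other H3K27ac peaks, of 257 bp inside and 312 bp beyond the gene, overlapped no ATAC. Slc1a1, the transporter of this family found in neurons, had ATAC of 473 bp on its start and no H3K27ac peak at its ends, inside or assigned. H3K27ac lay at an end of 6 of 8 glial markers and of 4 of 8 TrkC neuron markers (all genes: 49.3%), and the part of glial cells in the peaks of Slc1a2 and Slc1a3 was not tested.

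Over the whole gene, H3K27ac lay in 4 of 5 kainate receptor genes (all genes: 55.5%), and Grik3 had none there or assigned. These genes are long, with a median of 395 kb, and 65.3% of all genes of 200 kb or longer held H3K27ac inside. Grik1, whose product (GluK1) is a known kainate subunit of sensory neurons, had 2 ATAC peaks of 207 and 281 bp at its upper end, with an H3K27ac peak of 612 bp (chr16:88289925-88290536) that overlapped both, and 2 acetylated distal ATAC peaks, chr16:87834451-87834544 below the gene and chr16:87917212-87917322 inside it. Grik2 counted as unmarked by its annotated ends because its start lies 1407 bp in. On that start lay an ATAC peak of 482 bp (chr10:49788428-49788909) within an H3K27ac peak of 711 bp (chr10:49788323-49789033), and a second pair, 262 bp of ATAC (chr10:49783262-49783523) within 1097 bp of H3K27ac, lay 5362 bp into the gene by its midpoint.

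Grik4, which encodes a high-affinity kainate subunit, held 12 ATAC peaks inside the gene, the most of the 30 members, and 3 of them were acetylated. At its start, ATAC of 311 bp (chr9:42944391-42944701) lay under 1066 bp of H3K27ac (chr9:42943702-42944767). The 3 acetylated elements inside the gene were chr9:42530252-42530604, chr9:42673099-42673601 and chr9:42897364-42897979, with ATAC widths of 353, 503 and 616 bp. The first and last of these were within 100 kb of an end and were assigned to the gene. Grik5, also of the high-affinity kind, was marked differently: a 1641 bp H3K27ac peak (chr7:25071825-25073465) covered its start with no ATAC peak within 1 kb, and the second H3K27ac peak, of 1846 bp, lay at its upper annotated end in a window shared with Zfp574. Its ATAC peaks within 1 kb of an end, of 189 and 132 bp, were at the opposite end, so its count under both marks does not rest on peaks in 1 place.

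Grik3 had the most distal ATAC peaks of the set and no H3K27ac. It had 16 distal ATAC peaks, 9 of them inside the gene (chr4:125490259-125714173), with widths of 93 to 470 bp and a median of 178.5 bp. Its start had no peak of either list within 1 kb; the nearest ATAC peak ended 3807 bp before it. Of all genes, 25 had 16 or more distal ATAC peaks, and 2 of these, Grik3 included, had no acetylated one. No other protein-coding gene lay within 362 kb below or 309 kb above Grik3, which leaves room for assigned peaks.

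**Figure D3:**
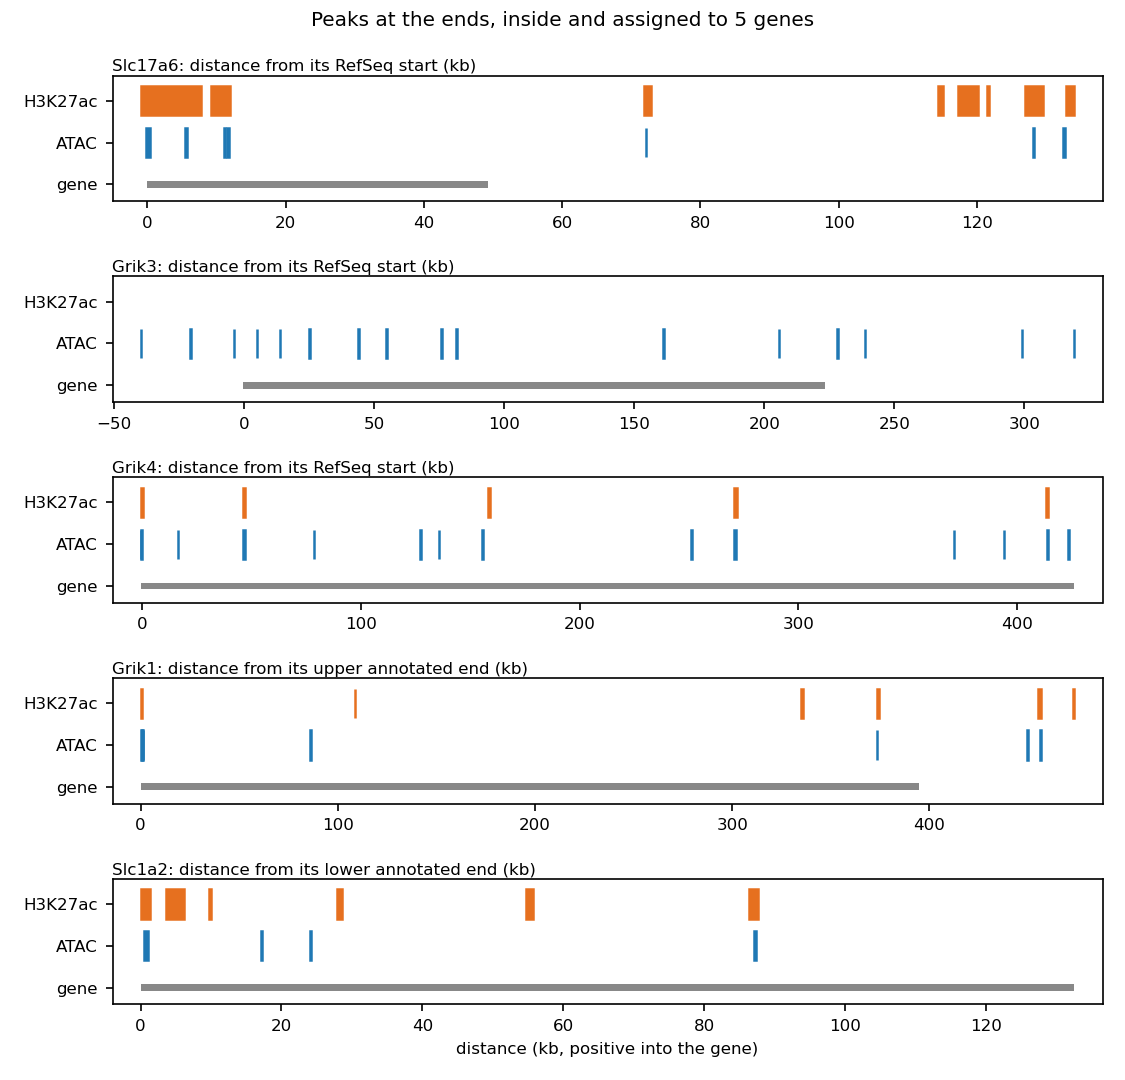
Positions of ATAC peaks (blue), H3K27ac peaks (orange) and the gene (grey) for Slc17a6, Grik3, Grik4, Grik1 and Slc1a2, as distance in kb from the RefSeq start or, for Grik1 and Slc1a2, from an annotated end, with positive values into the gene. Narrow peaks are widened by their outline so that they can be seen. H3K27ac stands at the start of Slc17a6 and Grik4 and at the plotted end of Grik1 and Slc1a2, and the 16 peaks of Grik3 are all ATAC.

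Among the AMPA receptor genes, Gria2 and Gria4 were marked and Gria1 and Gria3 were not acetylated. The product of Gria2 limits the calcium permeability of AMPA receptors. Its start lies 1392 bp in from the annotated end and was covered by an ATAC peak of 428 bp (chr3:80802623-80803050) within an H3K27ac peak of 2668 bp (chr3:80800563-80803230); by its annotated ends the gene counted as acetylated without ATAC. In Gria4, an ATAC peak of 228 bp lay on the start and one of 452 bp 248 bp inside it, both under or partly under 769 bp of H3K27ac (chr9:4795722-4796490). Gria1 had an ATAC peak of 118 bp at its lower end, 3 inside and 1 beyond the upper end, none wider than 167 bp and none acetylated. Gria3, on the X chromosome and 277.8 kb long, had no peak of either list at its ends, inside or assigned.

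No NMDA receptor gene had H3K27ac at a listed start (0 of 4, beside 51.6% of all genes), and at annotated ends 1 of 7 did (all genes: 49.3%). That 1, Grin2d, owed it to an H3K27ac peak of 856 bp at its lower end, in a window shared with Grwd1, and its start, 4513 bp in from the opposite end, had an ATAC peak of 379 bp (chr7:45865995-45866373) with no H3K27ac. Grin1, the subunit gene needed for every NMDA receptor, was open over its start with an ATAC peak of 546 bp (chr2:25318764-25319309), the widest at the end of any member without H3K27ac there. Grin2b, the main partner subunit before birth in much of the nervous system, had 230 bp of ATAC at its upper end and 6 ATAC peaks inside, none acetylated. Grin3a had 239 bp of ATAC at its upper end and no other peak. Grin2a, Grin2c and Grin3b had no peak at an end: Grin2c held 3 ATAC peaks inside an 18.1 kb gene, Grin3b held none, and Grin2a held 1 ATAC peak and 2 H3K27ac peaks inside, of 579 and 2721 bp, that overlapped no ATAC. None of the 12 distal ATAC peaks of the NMDA group was acetylated. The delta receptor gene Grid1 was open at its lower end with 323 bp of ATAC and held 6 ATAC peaks and a 250 bp H3K27ac peak inside, with no overlap of the 2 lists.

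Of the 7 metabotropic receptor genes, 6 had ATAC at an end (all genes: 60.4%) and 2 had H3K27ac (49.3%). With the wider 50% of each list, 3 had ATAC at an end, all without H3K27ac, and 1 had H3K27ac. Grm2, a receptor that lowers transmitter release, was the exception with both marks at the start, an ATAC peak of 201 bp (chr9:106656255-106656455) under 3124 bp of H3K27ac (chr9:106654160-106657283). Grm4 had a narrow H3K27ac peak of 341 bp near its upper end without ATAC, and 1 of its 7 distal ATAC peaks was acetylated (chr17:27392950-27393412, 28975 bp below the gene). Grm3, Grm5, Grm6, Grm7 and Grm8 were open at an end without H3K27ac there, with ATAC widths of 522 bp, 403 bp, 156 bp, 125 and 283 bp, and 212 bp. Of these 5 genes, Grm3 alone had any H3K27ac peak inside or assigned, 1 of 1193 bp inside and 1 of 260 bp beyond an end. Grm6 is best known from retinal bipolar cells.

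**Figure D4:**
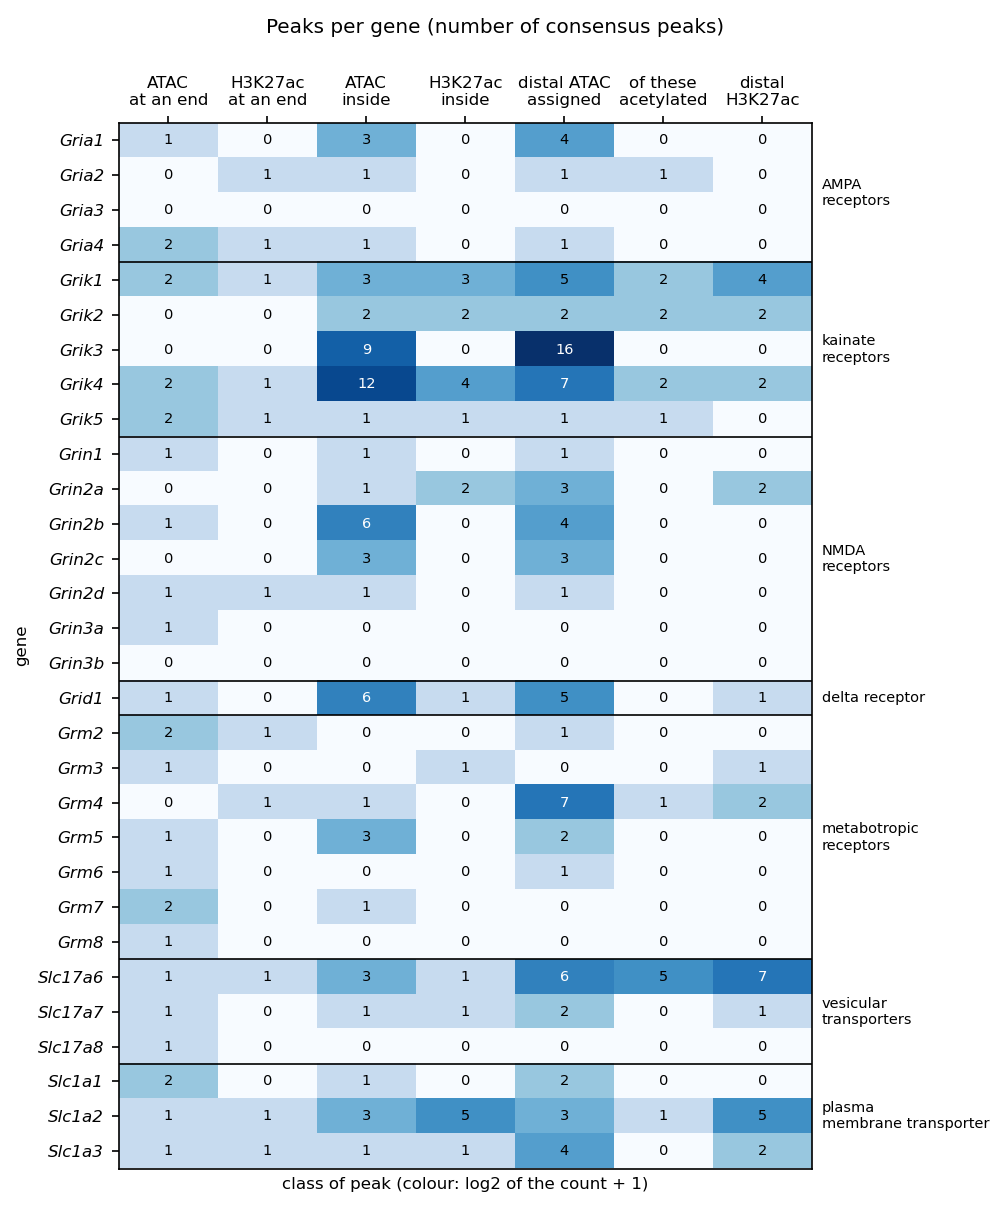
Number of consensus peaks of each class for the 30 genes, grouped by receptor or transporter type; columns are ATAC and H3K27ac within 1 kb of an end, inside the gene, and distal peaks assigned to the gene, of which the acetylated ATAC peaks have their own column. Colour follows log2 of the count plus 1. The highest counts are 16 distal ATAC peaks at Grik3 and 12 ATAC peaks inside Grik4.

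Away from the ends, 22 of 30 members held an ATAC peak inside the gene (all genes: 31.2%) and 11 an H3K27ac peak (all genes: 14.7%). An ATAC peak under H3K27ac lay inside 6 members, Gria2, Grik1, Grik2, Grik4, Slc17a6 and Slc1a2 (all genes: 11.7%). Gria3 and Grin3b had no peak from 1 kb before to 1 kb after the gene (all genes: 29.3%). By length, 11 of 14 members of 200 kb or longer held ATAC inside (all such genes: 85.6%) and 6 of 14 H3K27ac (65.3%). At 50 to 200 kb, 6 of 7 held ATAC (63.4%) and 3 of 7 H3K27ac (36.3%), and under 50 kb, 5 of 9 held ATAC (20.5%) and 2 of 9 H3K27ac (6.77%). At 200 kb or longer, the members were thus below all such genes for H3K27ac and near them for ATAC (78.6% against 85.6%). In the shorter classes they were above, though near all such genes for H3K27ac at 50 to 200 kb (42.9% against 36.3%). Per 100 kb of gene, the members held 0.808 ATAC peaks inside, against 1.49 for all genes. By group, this density was 3.68 in the vesicular transporters, 1.74 in the plasma membrane transporters and 1.49 in the kainate receptor genes. It was 1.03 in the NMDA, 0.786 in the delta, 0.456 in the AMPA and 0.186 in the metabotropic receptor genes. These values rest on few peaks and few genes. The vesicular transporters held 4 peaks, 3 of them in Slc17a6, and the plasma membrane transporters 5, 3 of them in Slc1a2. Of the 27 in kainate receptor genes, Grik4 held 12 and Grik3 held 9. Grm7 and Grm8, of 921.9 and 860 kb, held 1 and 0 ATAC peaks.

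**Figure D5:**
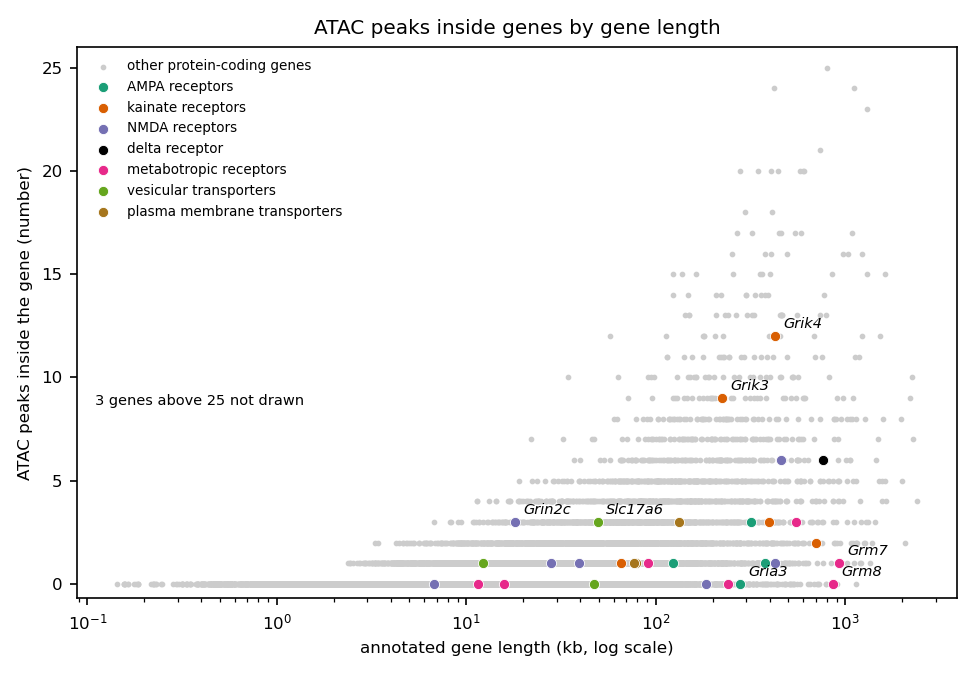
Number of ATAC peaks inside each gene against its annotated length in kb on a log scale, with the 30 members coloured by group and other protein-coding genes in grey; 3 genes above 25 are not drawn. Grik4 and Grik3, with 12 and 9 peaks, stand highest among the members, and Grm7, Grm8 and Gria3 lie at 1, 0 and 0 despite their length.

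Distal peaks were counted next. The 30 members had 82 distal ATAC peaks assigned, of which 15 (18.3%) overlapped H3K27ac, against 22.4% of the 24355 assigned to all genes. A distal ATAC peak was assigned to 23 members (all genes: 46.0%), an acetylated one to 8 (all genes: 15.4%) and a distal H3K27ac peak to 11 (all genes: 20.6%). By length, an acetylated one was assigned to 3 of 14 members of 200 kb or longer (38.2%), to 4 of 7 of 50 to 200 kb (29.3%) and to 1 of 9 under 50 kb (10.8%). Of the 15 acetylated ones, 7 belonged to kainate receptor genes, 5 to Slc17a6, and 1 each to Gria2, Grm4 and Slc1a2. The 2 for Grik2 and the 1 for Gria2 include the ATAC peaks on their starts, and the 1 for Grik5 (chr7:25076833-25077469) lay under the H3K27ac peak shared with Zfp574. Of the 29 distal H3K27ac peaks assigned to members, 18 overlapped no ATAC peak, 4 of them at Slc17a6 and 4 at Slc1a2.

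The letters of the promoters were searched for motifs in windows of 250 bases before to 50 from the start, on both strands, for all 21262 windows of protein-coding genes. The RE1 element, the site of the repressor REST, was searched as CAGCACC and GGACAG with 2 free bases between them and up to 2 mismatches. It was found in 4 of the 26 windows of members, those of Gria2, Grik2, Grin1 and the first start of Slc17a6, and in 2.07% of all windows. With bases counted from 0 at the start, the match with 1 mismatch in Gria2 was CTGTCCGCGGTGCTA at -170 to -156, and that in Slc17a6 was CTGTCCGTGGTCCTG at 34 to 48; the remaining 3 had 2 mismatches. Of these 4 genes, 3 carried both marks at the start and Grin1 ATAC alone. The Runx site TGTGGT was found in 2 of the 26 windows, those of Grin1 and Grm2 (15% of all windows), the E-box CAGNTG in 11 (48.6%), the GC box GGGCGG in 14 (46.2%) and the CRE TGACGTCA in 0 (2.23%). A match is a description of letters, and none shows that a factor binds.

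The ratio of observed to expected CpG had a median of 0.448 over the 26 windows of members, against 0.567 over all windows. It was 0.652 over the 8 windows of members with both marks (all genes: 0.786) and 0.438 over the 13 windows of those with ATAC alone (all genes: 0.534). Here every window of a gene took the state of the gene. The windows at the inner starts of Slc17a6, Slc17a8 and Grm8 are thus included, although no ATAC peak lay within 1 kb of these starts. Grik3, without a peak of either list within 1 kb of its start, had 82% G or C, a ratio of 1.01 and 7 GC boxes in its window.

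In the other genes of the glutamate synapse, a larger share had H3K27ac at an end than among the 30 members. In the auxiliary and metabolic lists this share was not far from that of all genes (49.3%). Of 14 genes of auxiliary subunits, which steer receptors to the synapse and set their gating, 11 were open (all genes: 60.4%) and 8 acetylated (49.3%). Cacng8, Cnih3 and Shisa6 had no peak at an end, and Cacng4, Gsg1l, Shisa7 and Shisa9 each had 1 acetylated distal ATAC peak. Of 17 scaffold genes, 14 were open (all genes: 60.4%) and 12 acetylated (49.3%). Dlg4, which encodes PSD-95, was the scaffold gene with H3K27ac but no ATAC at an end and had 3 acetylated distal ATAC peaks, whereas Shank3 and Grip2 had neither mark there. Dlg3, Dlgap4 and Shank2 had 1 such distal peak each. Of 12 genes of glutamate metabolism and related carriers, 10 were open (all genes: 60.4%) and 7 acetylated (49.3%). Slc1a7 had no peak of either list at an end or inside. Slc38a1, a glutamine carrier, had 2 acetylated distal ATAC peaks, and Got1 and Slc38a2 had 1 each. H3K27ac lay at an end of 8 of the 11 open auxiliary genes, 11 of the 14 open scaffold genes and 7 of the 10 open metabolic genes, beside 79.1% of all open genes and 9 of 22 members. The shares in these lists, of 72.7%, 78.6% and 70%, were at or below that of all open genes. These differences were not tested.

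Genes of inhibitory transmission gave counts at gene ends close to those of the 30 members, and fewer distal peaks. Of 26 genes for receptors, transporters and enzymes of GABA and glycine, 21 were open at an end (all genes: 60.4%) and 9 acetylated (49.3%). Both marks were present in 8 (47.8%) and ATAC alone in 13 (12.6%). They had 37 distal ATAC peaks, 5 of them acetylated (13.5%), beside 82 and 15 (18.3%) in the members and 22.4% acetylated for all genes. Of the 82, 16 belonged to Grik3. They had 3 distal H3K27ac peaks and 7 inside the gene, beside 29 and 22. The inhibitory genes are shorter, with a median of 91.1 kb against 158 kb. Per 100 kb of gene, they held 0.951 ATAC peaks inside against 0.808 in the members, and 0.185 H3K27ac peaks against 0.278. In both sets, ATAC alone was the most frequent state at gene ends.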

How the data were processed

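ATAC-seq, H3K27ac ChIP-seq and input DNA were prepared from 50000 PFA-fixed, sorted and frozen cells each, with at most 15 PCR cycles, per the labels' protocols. Per the submitters' processing notes, cutadapt 1.18, Bowtie2 2.3.5.1, MACS2 and bedtools were used on mm10; how each consensus list was formed, and with which thresholds, is not given in the sources used here. The deposited files hold coordinates only, in bp, with no signal (43739 ATAC and 19928 H3K27ac peaks), of which 43652 and 19924 on chromosomes 1 to 19, X and Y were used; depth is unknown.

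Positions are 1-based. Python 3.11.15 with pandas 2.3.3 was used. Overlap means at least 1 bp. Peaks over 1 kb from every end of a protein-coding gene are distal; they lie inside a gene by their midpoint and belong to the nearest end within 100 kb. RefSeq starts and promoter letters come from a GRCm38.p6 table; genes without an entry are left out of counts at starts. No test was made, since each assay has 1 list. Members and lists were chosen with earlier results of these data known, and motifs after the peaks were seen. All 30 members are named; of other synapse genes, up to 4 per list with most acetylated distal peaks and exceptions of 3 or fewer. Results for some listed genes are not reported here. Counting was checked on simulated peaks. Alternatives were windows of 0.5 and 2.5 kb, the wider 50% of each list, starts alone, peaks anywhere in the gene, other assignments and overlaps.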

Additional observations from a re-analysis of the deposited data

How the results depend on the processing

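No paired analysis was possible because each assay has 1 consensus list over its replicates, and for the same reason no replicate could be left out. With the wider 50% of each list, 6 members were acetylated at an end (all genes at that setting: 32.4%), 3 had both marks (Grik4, Slc17a6 and Slc1a2; 30.4%), 14 held ATAC (17%) and 7 H3K27ac (7.6%) inside the gene, and 9 acetylated distal ATAC peaks were assigned. Counted over the whole gene, 16 members had both marks (54.8%). Without the need for H3K27ac, 82 distal ATAC peaks were assigned. The other 34 recomputed counts over all members were within 1.5 times those reported. This compares counts of members and not their relation to all genes. With any overlap with the gene span, 25 members held ATAC (all genes: 68.2%) and 15 held H3K27ac (all genes: 54.4%). The share with H3K27ac was then no longer above that of all genes. Of the recomputed values for groups and single genes, 51 moved by more and 133 did not. The ATAC count at ends fell with the wider 50% from 6 to 3 in metabotropic receptor genes, from 3 to 1 in vesicular transporters and from 2 to 1 in AMPA receptor genes. The NMDA count of H3K27ac at ends was 0 for the 0.5 kb window, the wider 50%, starts alone and peaks at the ends of 1 gene only, and 2 over the whole gene. The AMPA count of both marks was 2 for the 2.5 kb window, starts alone and the whole gene, and 0 for the wider 50%. The alternatives of peaks at 1 gene only and of peaks overlapping each other at an end (8 members), were chosen after seeing the data. The cause of these changes was not tested, beyond the fewer peaks kept. The lists give no depth, so a missing peak may lie below the limit of detection.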

Other observations

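Grm2 held no match to the RE1 letters above, but its promoter contains both parts of that element further apart: CAGCACCACACTGTGGACAG begins at -240 from the start, with 7 bases between CAGCACC and GGACAG, and lies under the ATAC peak and the H3K27ac peak. A search for both parts with 3 to 12 bases between them found 14 of 21262 promoter windows (0.0658%), and Grm2 was the member among them. This search was made after the sequence had been seen.

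Annotated gene ends and RefSeq starts gave different calls for single genes. Gria2 changed from H3K27ac alone to both marks, Grik2 from neither to both, Grik5 from both to H3K27ac alone, Grin2d from both to ATAC alone, and Slc1a2 from both to neither.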
